A study of Mus musculus with 2 samples.

Results

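Of 3153 peaks of FLAG-tagged HLF in cultured mouse blood progenitors, 235 peaks (7.45%) had another peak within 5 kb, and these fell into 114 clusters. The peaks were chosen by position alone: a peak was kept when its centre lay at most 5000 bases from the centre of another peak on the same chromosome. The remaining 2918 peaks are called lone peaks below. Wild-type Lin-Sca-1+c-Kit+ (LSK) cells of the mouse, which lack lineage markers and include stem cells and multipotent progenitors, were infected with the retrovirus pMX-3xFLAG-Hlf/Hlf-IRES-GFP or with the pMX-GFP control virus. Both arms were kept for 5 days in OP9 medium with SCF, IL-7, Flt3L and IL-3, and DNA bound by the tagged protein was recovered with anti-FLAG and sequenced. Each arm gave 1 library. Only the FLAG-HLF peaks were analysed here, so no value has a replicate check and the arms were not compared. The tagged HLF was expressed from a viral vector, not from its own gene. No expression data were analysed here, so the LSK label was not checked against marker genes. The list gives positions without heights, so the depth is unknown.

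HLF belongs to the PAR bZIP transcription factors, which pair through a leucine zipper and touch DNA with their basic regions. The related C/EBP factors, which drive granulocyte and monocyte genes, also have a bZIP domain and recognise similar DNA words. In the blood system Hlf marks stem cells and multipotent progenitors and is switched off as cells mature. Binding sites that lie close together at a gene are a common layout of promoters and enhancers, where several sites can act on the same start of transcription.

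Sequence was at hand for clustered peaks that lie over a promoter window of RefSeq (GRCm38.p6), which runs from 250 bases before a start of transcription to 50 after it. At least 100 bases of a window were covered by 15 clustered peaks in 15 clusters, over 18 windows of 17 genes. The stretches below are shown because 6 of them carry a C/EBP word near the peak centre and 1 carries a PAR bZIP word. Each is the 101 bases about the peak centre, 5′ to 3′ on the strand of the named gene, and capitals mark the word.

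Per1 (chr11:69098879-69098979, plus strand): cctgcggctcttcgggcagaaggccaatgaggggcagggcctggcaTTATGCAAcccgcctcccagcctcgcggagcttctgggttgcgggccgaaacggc
Lman2 (chr13:55362929-55363029, minus strand): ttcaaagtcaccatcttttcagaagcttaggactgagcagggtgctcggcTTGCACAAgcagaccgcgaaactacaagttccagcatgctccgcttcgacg
Fam78a (chr2:32084810-32084910, minus strand): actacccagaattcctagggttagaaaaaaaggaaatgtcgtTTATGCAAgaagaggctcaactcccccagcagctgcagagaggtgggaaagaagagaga
Nt5c3 (chr6:56901922-56902022, minus strand): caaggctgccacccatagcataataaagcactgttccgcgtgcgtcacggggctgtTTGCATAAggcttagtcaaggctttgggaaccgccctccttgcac
Mpc2 (chr1:165461042-165461142, plus strand): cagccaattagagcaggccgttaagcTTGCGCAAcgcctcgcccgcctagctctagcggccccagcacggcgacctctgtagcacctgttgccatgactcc
Gm28809, inside Cd9 (chr6:125481909-125482009, plus strand): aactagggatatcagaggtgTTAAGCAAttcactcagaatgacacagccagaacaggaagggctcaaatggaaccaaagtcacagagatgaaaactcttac
Casc1 (chr6:145210936-145211036, minus strand): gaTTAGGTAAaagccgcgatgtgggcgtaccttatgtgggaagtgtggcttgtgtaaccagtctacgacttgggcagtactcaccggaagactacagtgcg

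The C/EBP word was searched as TTGCNNAA and its reverse TTNNGCAA, the PAR bZIP word as TTANGTAA and its reverse TTACNTAA, and no 8 bases match both. The C/EBP word was in windows of 7 of the 15 clustered peaks, and in those of 55 of 155 lone peaks at promoters (35.5%), against 10.8% of all 32851 promoter windows of the same length. A peak can cover several windows, so shares of peaks and of windows, here and below, are not like measures. Counted by windows, the C/EBP word was in 7 of 18 at clustered peaks and in 57 of 169 at lone peaks (33.7%). It lay 0.5 bases from the peak centre at Per1 (TTATGCAA), 3.5 at Lman2 (TTGCACAA), 4.5 at Fam78a (TTATGCAA), 9.5 at Nt5c3 (TTGCATAA), 20.5 at Mpc2 (TTGCGCAA) and 26.5 at the noncoding gene Gm28809 (TTAAGCAA). The seventh lay 73.5 bases away. So 6 of the 7 words were within 30 bases of the centre, a distance chosen after the values were seen. At lone peaks 33 of 58 such words (56.9%) were that close, with a median distance of 22.5 bases against 9.5 bases at clustered peaks. The PAR bZIP word at lone peaks had a median distance of 32.5 bases, with 7 of 16 words (43.8%) within 30 bases. The medians of the other words there were 40 bases for CRE (2 words), 67 for AP-1 (11) and 71 for the clock E-box (14). They were 93 for RUNX (15 words), 104.5 for ETS (9) and 105 for GATA (3). Medians of so few words are uncertain, and the distances were not tested.

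The PAR bZIP word was in 1 of the 15 clustered peaks, at the shared promoter of Casc1 and Etfrf1, 44.5 bases from the centre. It was in windows of 16 of the 155 lone peaks (10.3%) and in 2.32% of all windows. Shares of peaks here count a word anywhere in such windows, so at lone peaks it need not lie under the peak. There 5 peaks had the GATA word, but a distance was found for 3 such words. The palindrome TTACGTAA was in 0 of the 15 and in 0.119% of all windows. Of the other words, searched on both strands, the clock E-box CACGTG was in 3 of the 15, in windows of Per1, AW549877 and the noncoding gene 4930573C15Rik, against 10.97% of lone peaks and 7.15% of all windows. The RUNX word TGTGGTT was in 2, against 9.68% of lone peaks and 5.27% of all windows. The AP-1 word TGANTCA was in 1, at Ccl9, against 7.10% and 7.81%, and the CRE word TGACGTCA in 1, at St7, against 2.58% and 1.79%. At these clustered peaks the CRE word lay 29.5 bases from the centre, also within 30 bases, and the AP-1 word 96 bases. Median distances at clustered peaks were 114.5 bases for RUNX (2 words) and 163 for the clock E-box (4 words). The GATA word AGATAAG was in 0 of the 15, 3.23% of lone peaks and 3.04% of all windows, and the ETS word GAGGAAGT in 0 of the 15, 7.10% and 3.20%. The windows had a median GC content of 59% at clustered peaks, 57% at lone peaks and 52.7% over all windows, and the part of base composition in these shares was not tested. A match is a run of letters, not a measured binding site. The next stretches show the covered promoter parts of Ccl9, a chemokine gene of myeloid cells with the AP-1 word in capitals, and of Nlrp3, the inflammasome sensor, in which none of the words was found.

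Ccl9 (chr11:83578587-83578790, minus strand): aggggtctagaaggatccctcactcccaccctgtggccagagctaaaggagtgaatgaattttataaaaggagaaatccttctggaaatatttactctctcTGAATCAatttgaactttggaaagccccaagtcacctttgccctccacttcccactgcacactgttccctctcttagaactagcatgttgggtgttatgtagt
Nlrp3 (chr11:59541319-59541618, plus strand): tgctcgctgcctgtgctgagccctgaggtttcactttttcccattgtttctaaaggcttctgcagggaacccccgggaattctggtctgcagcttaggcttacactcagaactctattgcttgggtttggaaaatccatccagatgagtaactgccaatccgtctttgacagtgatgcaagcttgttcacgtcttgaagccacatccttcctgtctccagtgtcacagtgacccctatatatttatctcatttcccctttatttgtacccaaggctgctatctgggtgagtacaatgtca

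Most clusters were pairs. There were 108 clusters of 2 peaks, 5 of 3 peaks and 1 of 4 peaks, which gave 121 neighbouring distances. These distances chose the members and are given as a description. They ran from 525 to 4987 bases with a median of 2207 bases, and the middle part of them, from the lower to the upper quartile, spanned 1116 to 3622 bases. By kilobase their counts were 23, 30, 26, 19 and 23. In the first kilobase all 23 lay between 0.5 and 1 kb. The next step of 0.5 kb held 18, and the steps from 3 to 5 kb held 8 to 12 each, so distances were denser at the low end. Beyond the limit 64 distances lay between 5 and 10 kb, with 9 to 15 in each kilobase. The largest distances inside the limit were 4858, 4872 and 4987 bases, and the first outside it were 5098, 5108 and 5109 bases. The limit therefore cuts through a continuous run of values. Every peak has a width of 400 bases, so none of the pairs overlapped. Over all neighbouring peaks on the same chromosome the median distance was 268 kb. From a cluster to the nearest peak outside it, on either side, the median was 70.4 kb. It was under 20 kb for 17 clusters and beyond 100 kb for 49. This value takes the shorter side only, while the 268 kb takes every distance, so the medians are not like measures. The distance from a lone peak to its nearest peak was not measured.

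**Figure D1:**
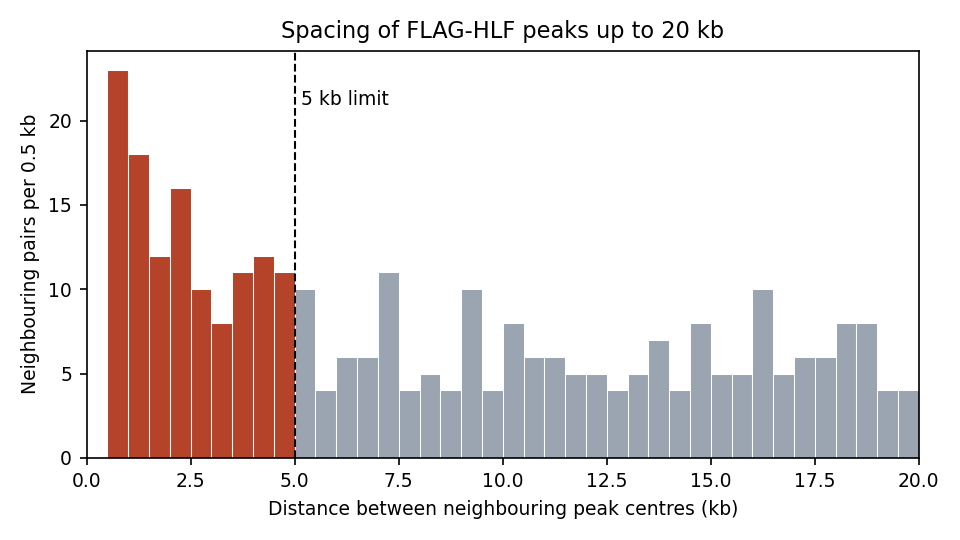
The bars count neighbouring FLAG-HLF peaks by the distance between their centres, in kb, in steps of 0.5 kb up to 20 kb, with distances inside the 5 kb limit in red and larger ones in grey. The tallest bar, 23 pairs at 0.5 to 1 kb, is the lowest step that holds any pair, and the bars beyond 5 kb stay between 4 and 11 pairs.

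None of the 5 shares compared between clusters and lone peaks differed past the threshold. With each cluster counted once, by its peak of lowest coordinate, 61 of 114 clusters (53.5%, 95% exact Clopper-Pearson interval 43.9 to 62.9%) were inside a coding gene, against 55.3% of lone peaks (53.5 to 57.1%). This was not past the threshold (Fisher's exact two-sided test, adjusted p = 0.702). Within 1 kb of a coding gene end were 15 clusters (13.2%, 7.56 to 20.8%) against 10.8% of lone peaks (9.72 to 12.01%; Fisher's exact adjusted p = 0.579), and with the peak listed first in place of the lowest the direction turned, to 7.89% of clusters (Fisher's exact adjusted p = 0.731). Within 5 kb were 37 clusters (32.5%, 23.99 to 41.9%) against 29.1% (27.5 to 30.8%; Fisher's exact adjusted p = 0.579). Beyond 100 kb of any coding gene end were 3 of 114 clusters (2.63%, 0.546 to 7.50%) against 267 lone peaks (9.15%, 8.13 to 10.3%). That difference had a Fisher's exact p of 0.0113 and an adjusted p of 0.0565 over the 5 shares tested, which did not pass the threshold of 0.05. With a limit of 10 kb, which gave 168 clusters, it passed (2.98% against 9.36%; Fisher's exact adjusted p = 0.0157). With noncoding genes included it did not (0 of 114 clusters against 1.95% of lone peaks, Fisher's exact adjusted p = 0.344). A rough 1-sided bound for 0 of 114, 3 divided by 114, is 2.63%, which is not an exact interval like the others. A rule that asks for close neighbours favours places where peaks are dense, and the part of this in the shares was not tested. The intervals cover counting error only.

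**Figure D2:**
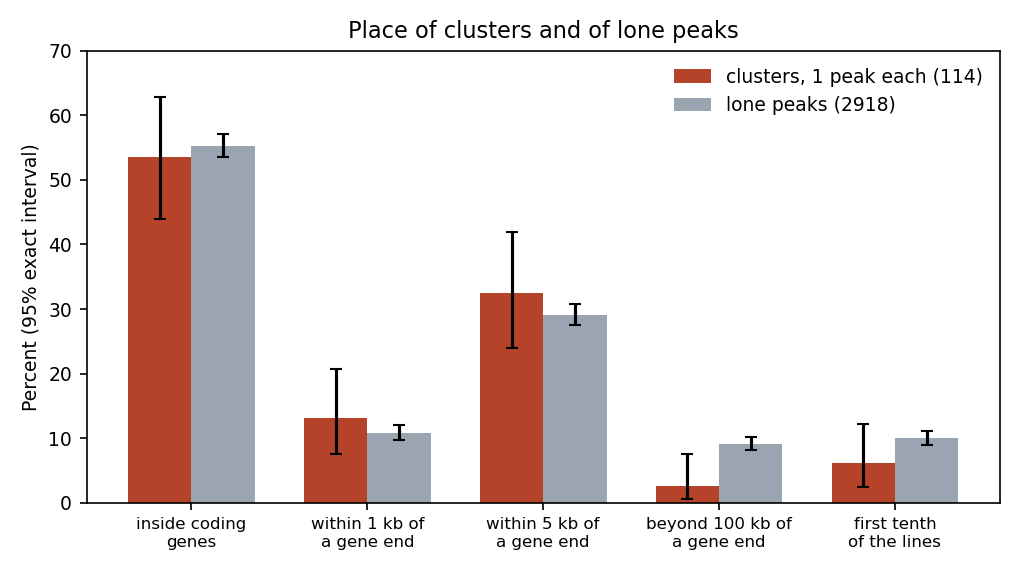
Bars give the percent of 114 clusters (red, 1 peak each) and of 2918 lone peaks (grey) in each kind of place and in the first 315 lines of the file, with 95% exact intervals as error bars. The intervals overlap in 4 of the 5 comparisons, and beyond 100 kb of a gene end the clusters' 2.63% lies under the 9.15% of lone peaks.

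Read as whole clusters, 51 had every peak in the same coding gene, 42 had no peak in a coding gene, 20 had peaks on both sides of a gene's bounds, and 1 had its peaks in neighbouring genes. Of the 235 peaks, 128 were inside coding genes. Genes that held a clustered peak had a median length of 51.8 kb, and the 1401 genes that held lone peaks only had one of 66.4 kb, against 17.1 kb for all coding genes.

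The cluster with the most peaks was at Trib1, which encodes a pseudokinase that brings C/EBP alpha to the ubiquitin ligase COP1. It had 4 peaks (chromosome 15, 59648348 to 59653218), with 4.47 kb between the first and the last centre. The first was centred 0.107 kb outside the lower end of the gene, and the others 1.97, 3.73 and 4.36 kb inside its 8.45 kb. The distance between the last 2 peaks was 632 bases. A lone peak followed 71.3 kb beyond the upper end.

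Of the 5 clusters of 3 peaks, the one at Id1, an inhibitor of bHLH factors and a target of BMP signals, spanned 5.54 kb. Its first peak lay on the lower end of the 1.16 kb gene, and the others were 2.19 and 4.39 kb beyond the upper end. The cluster of Per1, a repressor of the circadian clock, began 0.507 kb beyond the end of Vamp2, a vesicle fusion gene, and went on with peaks 0.285 kb outside the lower end of Per1 and 3.82 kb inside it. This last peak was centred 20 bases before an internal start of transcription that RefSeq lists for Per1. In Uck2, a uridine-cytidine kinase gene, 3 peaks lay 19.4, 23.6 and 24.3 kb from the lower end, the last of them 672 bases from its neighbour and 1 of them also inside the pseudogene Gm51816. In Rnf24, a RING finger gene, 3 peaks lay 22.9, 27.7 and 30.9 kb from the lower end, over the widest span of any cluster, 7.99 kb. Near Ly6e, a surface antigen of the Ly6 family, all 3 peaks preceded the lower end, by 28.2, 25.97 and 24.1 kb, and were inside the noncoding gene Gm39556. Clusters of 3 or more peaks thus occurred over gene ends, inside genes and in the space between coding genes. Exons and introns were not told apart here.

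**Figure D3:**
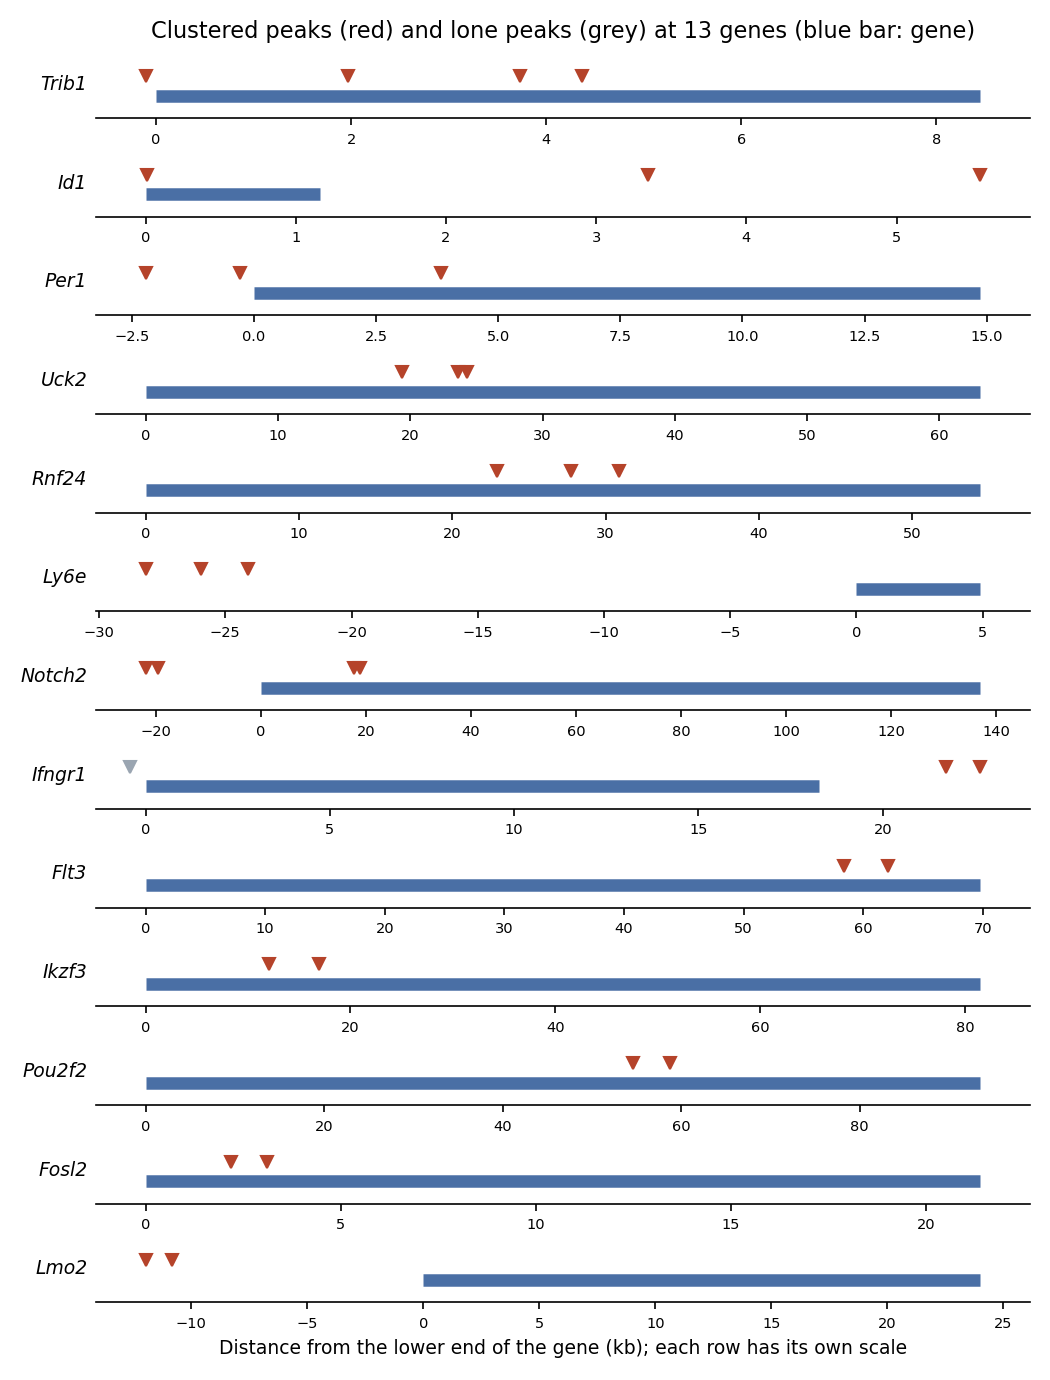
Each row is 1 coding gene drawn as a blue bar from its lower to its upper end, with distance in kb on a scale of its own, clustered peaks as red marks and lone peaks in range as grey marks. Trib1 has 4 red marks over its lower end and lower part, Notch2 has a pair on each side of its lower end, and the Ly6e and Lmo2 peaks lie wholly outside the gene.

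Peaks were assigned to the coding gene that holds them (of overlapping genes, the one with the nearer end), or else to the gene with the nearest end within 100 kb. By this rule 118 of 21900 coding genes (0.539%) were given a clustered peak, and 2420 genes (11.1%) were given any peak. Of the 118 genes, 73 held a clustered peak and 83 had no other peak. A total of 12 lists of blood cell and related genes were set beside them. The lists were drawn up with earlier results of this peak list known, some of their genes being in it for that reason, so their counts are no independent evidence. Of 356 distinct list genes 20 had a clustered peak (5.62%), against the 0.539% of all coding genes. Among genes with any peak the shares were 18.7% of 107 list genes and 4.88% of all 2420.

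Signalling adaptors and feedback inhibitors had 5 of 41 genes with a cluster (12.2%). Beside Trib1 these were Gab2, Dusp1, Dusp6 and Tnfaip3. Gab2, a docking protein that carries cytokine receptor signals to SHP2 and PI3 kinase, had a pair 1111 bases apart in the middle of its 227 kb, 98.8 and 97.6 kb from its upper end, and 3 further peaks. The phosphatases DUSP1 and DUSP6 switch off MAP kinases. The pair near Dusp1 was 1468 bases apart, with its first peak 25.6 kb from that gene and its second 25.2 kb from Ergic1, a gene of the secretory pathway. The pair near Dusp6 was 4305 bases apart, with its second peak 30.5 kb from Dusp6 and its first 30.3 kb from Poc1b, a centriole gene. Tnfaip3, which encodes the NF-kappa B inhibitor A20, had a pair 59.2 and 57.4 kb outside its lower end. Of these 5 genes Trib1 alone had a clustered peak within 1 kb of an end, a place that 22 of all 114 clusters had.

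Cytokine receptors and JAK-STAT genes had 3 of 40 (7.5%). Ifngr1, which encodes the ligand-binding chain for interferon gamma, had a pair 907 bases apart, 3.44 and 4.35 kb beyond its upper end, while a lone peak lay 0.429 kb outside the lower end. Il17ra, a chain of the interleukin 17 receptor, held a pair, 7.63 and 10.5 kb inside its lower end. Flt3, a receptor kinase of multipotent and lymphoid progenitors, held a pair 3726 bases apart, 11.4 and 7.64 kb downstream of its start site.

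Granulocyte, monocyte and macrophage genes had 4 of 38 (10.5%). Fcer1g, which encodes the signalling chain shared by Fc receptors, held a pair 748 bases apart, 1.17 and 1.91 kb downstream of its start site, in a gene of 4.78 kb. Ccl9 had a peak centred 46 bases after its start site and another 0.665 kb outside the upper end, which is its start. Near Adgre1, the gene of the macrophage marker F4/80, a pair lay in the space between Vav1 and Adgre1, 14.1 kb beyond Vav1, which encodes an exchange factor for small GTPases, and 11.4 kb before Adgre1. The fourth gene was Id1.

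B lymphoid genes had 4 of 32 (12.5%). Beside Flt3, Ikzf3, which encodes Aiolos, held a pair 4858 bases apart, and Pou2f2, which encodes the octamer factor OCT2, held a pair 4092 bases apart at 38.8 and 34.7 kb from its upper end. Near Lyn, a SRC family kinase, a pair lay 29.1 and 26.3 kb outside the lower end, and a lone peak 3.82 kb inside it. None of these B lymphoid genes had a clustered peak within 5 kb of an end, as did 38 of all 114 clusters. A list of 4 genes is too short to tell these apart.

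Notch2, a receptor used by marginal zone B cells and other blood cells, was the only gene given 2 clusters, and the 1 of 30 T and innate lymphoid genes with any. A pair 2438 bases apart lay 21.9 and 19.5 kb upstream of its start site, and a pair 1116 bases apart 17.8 and 18.9 kb downstream of it. Of the stem and multipotent progenitor factors 1 of 42 had a cluster: Lmo2, a bridging factor of blood stem cell complexes, with a pair 1135 bases apart at 11.97 and 10.8 kb outside its lower end, inside the noncoding gene Gm39896. Per1 was the only one of 24 clock and PAR bZIP genes. Of 30 AP-1, immediate early and bHLH inhibitor genes, Id1 and Fosl2 had a cluster, the Fosl2 pair lying 2.19 and 3.12 kb downstream of the start site of this AP-1 gene. The BCL2 family and cell death (25 genes), erythroid and megakaryocyte (21) and cell cycle (20) lists had 0. Since 0.539% of all coding genes were given a clustered peak, 0 in lists this short does not set them apart. Any peak was given to 2 (8%), 3 (14.3%) and 3 (15%) of their genes, in that order, near the 11.1% of all coding genes. Of 25 neuronal genes, taken as a list from outside this tissue, Vgf, a neuropeptide precursor gene, had a pair 910 bases apart (4%). Any peak was given to 11 of these 25 genes (44%), against 11.1% of all coding genes. Signalling adaptors and feedback inhibitors had a higher share with any peak (46.3%). Next below the neuronal list were cytokine receptors and JAK-STAT genes (37.5%) and granulocyte, monocyte and macrophage genes (36.8%). Over the 12 lists the share with any peak ran from 8 to 46.3%, and the share with a cluster from 0 to 12.5%.

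A start of transcription was listed in the RefSeq promoter table for a gene of 82 clusters. In 33 of them at least 1 peak was within 5 kb of it, and in 18 within 0.5 kb. Of the 33, 16 had peaks on both sides of the start site, 9 lay wholly downstream and 8 wholly upstream. Where a peak sat within 0.5 kb of the start site, 10 partner peaks were downstream of the start site and 9 upstream, 0.597 to 6.06 kb from it. Several start sites had a peak almost centred on them. In Casc1 it lay 16 bases upstream, in St7, where an internal start is listed, 32 bases downstream, in Nlrp3 78 bases upstream, in Vrk1, a chromatin kinase gene, 84 bases upstream of an internal start, and in Nt5c3, a pyrimidine nucleotidase gene, 86 bases upstream, also of an internal start. In Mpc2, which encodes a subunit of the mitochondrial pyruvate carrier, the peaks were 168 bases upstream and 3.51 kb downstream. In Lman2, a cargo receptor gene of the secretory pathway, they were 196 bases upstream and 1.44 kb downstream. Psme1, which encodes a subunit of the proteasome activator PA28, had a close pair around its start site, 0.455 kb upstream and 0.597 kb downstream. Fbxo11, a ubiquitin ligase subunit and partner of BCL6, had peaks 0.472 kb upstream and 3.65 kb downstream. Irf2bp2, a corepressor gene, and Prkcd, a protein kinase C gene, had both peaks outside the upper end, where these genes start, at 2.46 and 4.70 kb and at 4.76 and 7.32 kb.

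Among the other clusters with a peak within 1 kb of a coding gene end, the pair of Nek6, a mitotic kinase gene, lay 0.331 kb outside and 2.21 kb inside its lower end. In Pts, whose enzyme makes tetrahydrobiopterin, the peaks were 0.566 kb outside the lower end and 2.89 kb inside the upper end. Kctd20 had peaks 0.510 kb outside its lower end and 2.68 kb inside it, and Pla1a, a phospholipase gene, 1.51 kb outside and 0.076 kb inside. At the upper end of Heatr5a the peaks were 3.31 kb inside and 0.561 kb outside. Strn, the gene of the phosphatase subunit striatin, held both peaks, 1.82 and 0.440 kb inside its upper end. Hps4, a gene of lysosome-related organelles, held both of its peaks, 0.381 and 2.48 kb inside the lower end, close to the end of its neighbour Srrd. Ubp1, a transcription factor gene, had both peaks outside its lower end, at 2.04 and 0.200 kb. Sdhaf1, an assembly factor gene of succinate dehydrogenase, had a peak on each side of the whole gene, 0.195 kb below it and 3.24 kb above it. The pair between Naa16 and Mtrf1, a gene of mitochondrial translation, lay 2.69 kb beyond the first and 0.399 kb inside the second. In Casc1 and Etfrf1 the peaks were 0.031 and 0.787 kb inside the facing ends of the neighbouring genes. Among promoters of noncoding genes, that of 4930573C15Rik was under a peak 30.9 kb from Usp12, a deubiquitinase gene, with its partner at 35.1 kb.

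**Figure D4:**
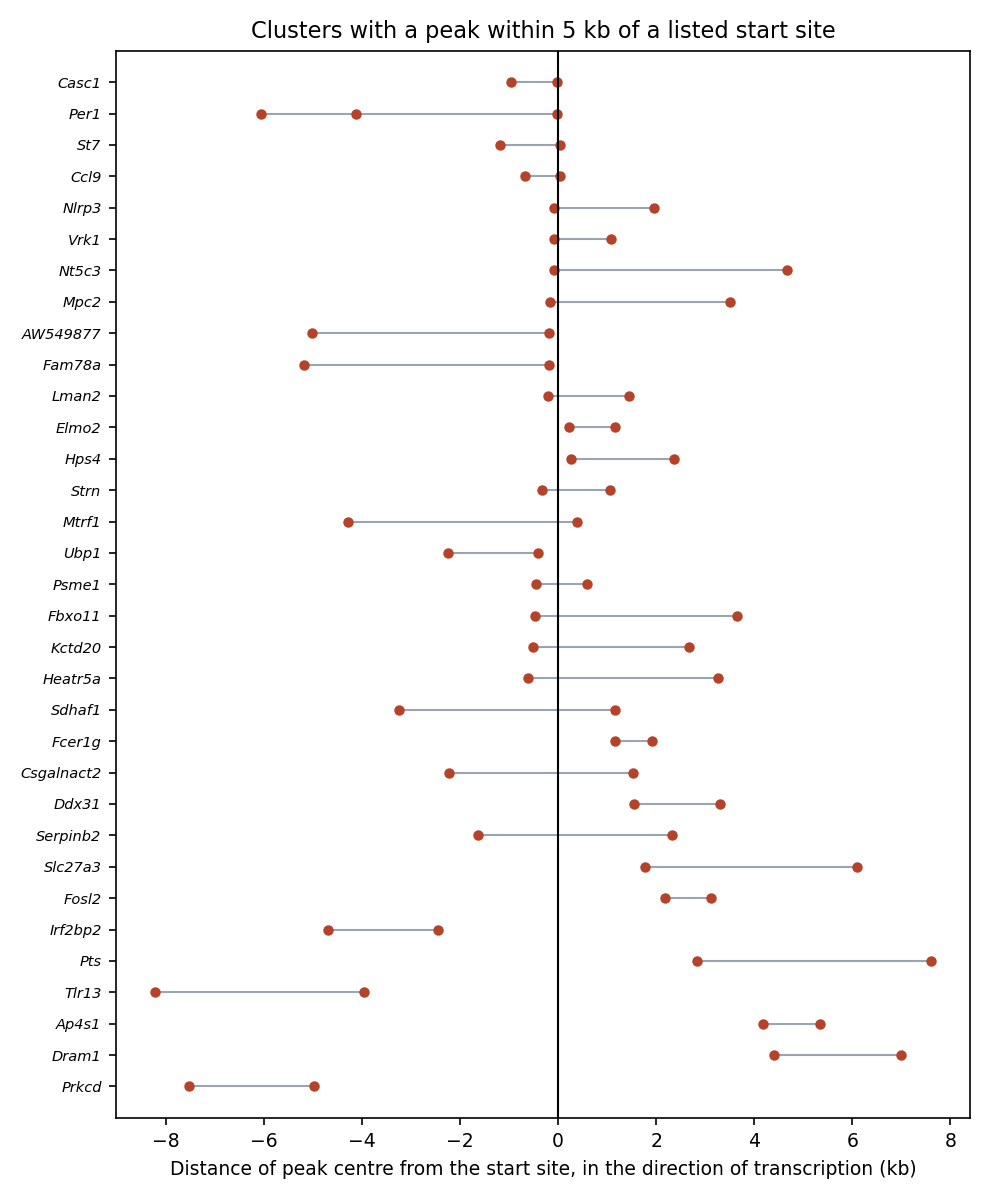
Each row is 1 of 33 clusters with a peak (red point) within 5 kb of a listed start site of its gene, ordered by the closest peak, with the distance in kb in the direction of transcription and the start site at 0. A total of 16 rows have points on both sides of the line, and the partner peaks of the top 18 rows reach 6.06 kb at most.

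Other clusters inside genes are given here by example, named after their values were seen. Itgb2, the CD18 integrin chain of leukocytes, held a pair 952 bases apart, 0.751 and 1.70 kb from its lower end. Lcp1, the actin bundling protein L-plastin of leukocytes, held a pair in the middle of its 99.7 kb and 2 lone peaks. Pecam1, the CD31 adhesion molecule of endothelium and blood cells, held a pair 4256 bases apart. Elmo2, a partner of DOCK exchange factors, had peaks 0.220 and 1.15 kb downstream of an internal start site. Vav3, an exchange factor of the same family as Vav1, held a pair 20.3 and 21.3 kb downstream of its start. Mapk14, which encodes p38 alpha, held a pair 837 bases apart, and Mapkapk3, a kinase that p38 activates, a pair 2985 bases apart. Hdac7, a class IIa histone deacetylase, held a pair 1978 bases apart. Arid2, a subunit of the PBAF remodelling complex, held a pair 1091 bases apart, and Ing3, a subunit of the NuA4 acetyltransferase, a pair 3331 bases apart. Cd9, a tetraspanin of platelets and stem cells, held a pair 2951 bases apart that also lay inside Gm28809, with lone peaks on either side of the gene. Angpt2, an angiopoietin gene, held a pair 2062 bases apart that was also inside Mcph1, since the genes overlap. It was counted for Angpt2, whose end was nearer, and positions alone do not tell which gene it belongs to.

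The 42 clusters without a peak in a coding gene included close pairs far from any coding gene. The 3 beyond 100 kb of a coding gene end were a pair 561 bases apart 349 kb from Klf6, a zinc finger factor gene, a pair 808 bases apart 191 kb from Hlx, a homeobox gene of blood cells, and a pair 1439 bases apart 499 kb from Acvr2a, an activin receptor gene. The pairs nearest to Hlx and Acvr2a were inside the noncoding genes 1700112H15Rik and Gm13481. A lncRNA gene held a peak in 21 of all 114 clusters, and in 15 of these 42. A cluster counts here if any of its peaks does. No share was computed for lone peaks outside coding genes, so the 15 of 42 has no matching background. By peaks, 14.5% of clustered and 11.2% of lone peaks were inside one, a difference that was not tested, since peaks of a cluster share their place. Other pairs outside coding genes were 33.3 to 35.6 kb from Cd69, an early activation antigen of lymphocytes, 19.1 and 19.8 kb from Anxa1, the annexin that glucocorticoids raise, and 22.2 and 25.6 kb from Ell2, an elongation factor of plasma cells. On X the single cluster lay between Atp7a, a copper pump gene, and Tlr13, a sensor of bacterial ribosomal RNA, 6.89 kb and 3.96 kb from them.

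The smallest distances included 525 bases near Slc25a17, a peroxisomal carrier gene, 558 near Ffar3, 561 in the pair on the side of Klf6, 608 near Cdk19, a kinase of the mediator complex, 632 in Trib1, 638 near Anxa1, 647 near Auh, 672 in Uck2 and 675 in Panx1, a channel gene. Of these, those in Trib1, Uck2 and Panx1 lay inside a coding gene. The Slc25a17 pair was 21.03 and 20.5 kb outside its lower end, the Auh pair 12.8 and 12.1 kb outside its lower end, and the Cdk19 pair 42.1 and 42.7 kb beyond its upper end. The Panx1 pair was 12.4 and 13.04 kb inside its lower end. The Ffar3 pair was 12.0 and 11.4 kb from its lower end. The 5 largest distances inside the limit were 4987 bases at Fam78a, 4872 in Rhobtb1, 4858 in Ikzf3, 4848 in Rnf24 and 4829 at AW549877. All but the last had a peak inside the named gene. The Fam78a peaks were 2.61 kb inside and 2.38 kb outside its upper end. Those of Rhobtb1 were 38.9 and 33.995 kb from the upper end, those of Ikzf3 12.0 and 16.9 kb from the lower end, and those of AW549877 0.184 and 5.01 kb beyond the upper end.

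The lines of the file follow an order that the sources used here do not explain, and the rule did not use it. From the first to the last listed peak of a cluster the median difference was 930.5 lines out of 3153. No such difference was computed for peaks that share no cluster, so this is not shown to be a trait of clusters. Over the 108 pairs the line numbers of the lower and the upper peak had a Pearson r of 0.118 and a Spearman coefficient of 0.105, given as a description across sites of 1 library. A few pairs were close: those of Fosl2 stood in lines 199 and 200, those of Slc27a3, a fatty acid transporter gene, in lines 1577 and 1578, those of Panx1 in lines 1738 and 1747, and those of Vgf in lines 31 and 50. The first 315 lines held 24 of the 235 clustered peaks, in 21 clusters. By the peak of lowest coordinate 7 of 114 clusters were there (6.14%, exact interval 2.504 to 12.2%), against 9.97% of lone peaks (Fisher's exact adjusted p = 0.504). By the peak of highest coordinate the direction turned, to 14.0% of clusters (Fisher's exact adjusted p = 0.388).

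By chromosome, the share of peaks in a cluster ran from 2.41% of 83 peaks on chromosome 18 to 13.9% of 202 peaks on chromosome 6. Chromosome 6 had the most clusters, 14, among them those of Il17ra, Cd9 and Cd69. Chromosome 15 followed by share, with 12.3% of 154 peaks in 8 clusters, among them those of Trib1, Ly6e and Hdac7. Chromosome 4 had 3 clusters for 202 peaks (2.97%). These shares were not tested.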

How the data were processed

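The labels' protocols give 80000 infected cells, 5 days of culture, crosslinking with 1% formaldehyde and 4 sonication cycles before anti-FLAG ChIP-seq. The number of cells at crosslinking is not stated here. Bowtie2, bedtools and MACS2, without role or version, and mm10 come per the submitters' processing notes. The authors' deposited peak list holds chromosome, start and end of 3153 intervals of 400 bases, with no score or header; the step that set the width, any threshold and any use of the GFP library are not known from the sources used here, and read depth is unknown.

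Neighbouring centres at most 5 kb apart were linked into clusters. Genes were 21900 coding genes of a RefSeq table (GRCm38.p6) with bounds and no exons; 1 list symbol was not in it. Start sites came from the RefSeq promoter table, which had an entry for 87 of the 118 cluster genes and held none on chromosome 18. Genome sequence was not used here, so the planned word search over all peaks was not run and only promoter windows were read. Each cluster, by its peak of lowest coordinate, was set against lone peaks with Fisher's exact test (two-sided, Benjamini-Hochberg over 5 shares); peaks of 1 library are not replicates. Where the peak listed first stood for a cluster, the share by line kept its main p in the adjustment, since that choice sets it. Named in full were clusters of 3 or more peaks, the 10 smallest and 5 largest distances, list genes, genes with 2 clusters and clusters at gene ends or promoters; others were named after their values were seen. Some clusters that this rule names are not reported here. The members, lists and words were chosen with earlier results of these data known. Clustering and test were tested on simulated data. Coordinates count from 1. Tools were scipy 1.17.1, pandas 2.3.3, numpy 2.4.6, matplotlib 3.10.9 and Python 3.11.15.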

Additional observations from a re-analysis of the deposited data

How the results depend on the processing

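Of 26 alternative values, 19 stayed on the same side of the threshold and in the same direction (or within 1.5 times for counts). With a limit of 2.5 kb there were 66 clusters of 135 peaks, and with 10 kb there were 353 clustered peaks. The share beyond 100 kb of a gene end passed the threshold in 1 setting, a limit of 10 kb (2.98% against 9.36% of lone peaks, Fisher's exact adjusted p = 0.0157, 168 clusters in place of 114), while at 2.5 kb it did not (4.55%, Fisher's exact adjusted p = 0.861, 66 clusters). Directions changed for the share within 1 kb with the peak listed first (7.89%), the share in the first 315 lines with the peak of highest coordinate (14.0%) and the share within 5 kb at a limit of 10 kb (29.2%), none of them past the threshold; the cause was not tested. The alternative for the PAR bZIP word over peaks was not run without a genome. No replicate could be left out, since there was 1 library. No paired analysis was possible because the arms hold 1 library each and the control's peaks were not analysed here. Without peak heights, weak and strong peaks could not be told apart.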
